A study of Mus musculus with 6 samples.

Results

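SR proteins and hnRNPs are the 2 large families of RNA-binding proteins that sit on pre-mRNA and set which splice sites are used. Their genes were read from a count table of 44200 gene models by name, as every Srsf gene with a number and every gene whose name starts with Hnrnp. This gave 32 gene models, 12 of SR proteins and 20 of hnRNPs; 1 model with a pseudogene name was left out. The hearts came from male C57BL/6 mice of 22 months (old, 3 samples) and 2 months (young, 3 samples) on normal chow. RNA extracted from the hearts was sequenced in bulk, though the labels' extraction text refers to a different sample type, abbreviated NRVMs. The samples of each age are described as independent biological replicates; whether each holds 1 heart is not stated, and each is called a heart here. No transgene, deletion or treatment is given for either age. The comparison of old with young asks which of these genes differ in RNA level with age. Counts of whole hearts mix all cell types, so fewer cells of a type and less RNA per cell cannot be told apart.

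SR proteins carry RNA-recognition motifs and a tail rich in arginine and serine; most of them bind exonic enhancers and favour the inclusion of an exon. Kinases of the Srpk and Clk families phosphorylate the tail and so control where the proteins are in the cell and when they act. The hnRNPs coat nascent transcripts, and many of them, such as hnRNP A1, favour exon skipping and work against SR proteins at the same exons. Both families limit their own level through unproductive splicing, in which an exon with a stop codon or a retained intron sends the transcript to decay. In the heart, loss of SR proteins such as SRSF1 or SRSF10 in mouse cardiomyocytes is known to disturb the splicing of calcium-handling genes.

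Of the 32 gene models 30 had enough counts to be tested, 10 of SR proteins and 20 of hnRNPs. Values are CPM, read counts scaled to library size with edgeR's TMM factors, and log2 fold changes are old over young ± SE. Adjusted p values come from edgeR's quasi-likelihood test with Benjamini-Hochberg adjustment over all 14413 genes tested, and a gene is called at an adjusted p under 0.05. Over all genes 15.1% were called, 8.72% higher and 6.36% lower in old hearts. The libraries held 13673856 to 15583364 counts. Old hearts were less alike than young ones, with a median SD of log2 CPM of 0.26 among old and 0.13 among young libraries over all genes tested. Old 1 lay between the young libraries and the other 2 old libraries on the first principal component (57.5% of the variance), and results are therefore also given without it. Each marker gene of cardiomyocytes on a list of 8 was detected, and their summed level was 46701 to 53133 CPM in old and 52606 to 59766 CPM in young hearts.

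Most SR protein genes had a higher mean level in old than in young hearts, and 2 passed the test. Srsf7 and Srsf11 rose, and no tested SR protein gene passed as lower. These 2 of 10 genes are 20% of the family, against 15.1% of all genes called in either direction and 8.72% called higher. The share called in either direction was thus close to the background.  The median log2 fold change of the 10 genes was 0.39, against 0.02 over all genes tested. Of the 10 values 9 were above 0, against 7432 of 14413 over all genes; one of the 9, Srsf5, was at 0.00 ± 0.27, and Srsf10 was at −0.02 without old 1. The 3 old libraries lay above all 3 young libraries for 4 genes, Srsf3, Srsf6, Srsf7 and Srsf11 (40%, against 18.8% of all genes tested), and below them for none (18.4%); in either direction the groups were apart for 37.3% of all genes. On the length-corrected FPKM scale that the authors deposited, the family summed to 279, 261 and 323 FPKM in the old hearts, against 229, 238 and 242 FPKM in the young hearts. Every old library exceeded every young one in this sum. Sums, medians and counts over a family are descriptions, since its genes are not replicates. The SR protein genes also varied more among old hearts, with a median SD of log2 CPM of 0.36 among old and 0.09 among young libraries.

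**Figure D1:**
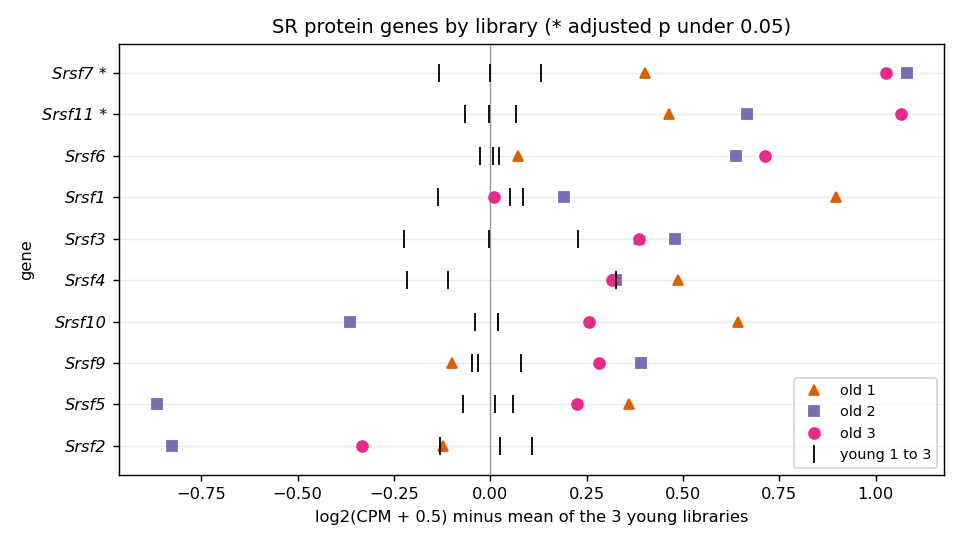
Level of the 10 tested SR protein genes in each library, as log2(CPM + 0.5) minus the mean of the 3 young libraries; triangles, squares and circles are old 1, old 2 and old 3, black ticks are the young libraries, and an asterisk marks an adjusted p under 0.05. All old symbols lie right of the young ticks for Srsf7, Srsf11, Srsf6 and Srsf3, while those of Srsf5 and Srsf10 lie on both sides.

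Srsf7 encodes a splicing activator with a zinc knuckle beside its RNA-recognition motif, and also takes part in mRNA export. It had 77.6, 125 and 119.9 CPM in the old hearts, against 64.3, 53.5 and 58.6 CPM in the young hearts (ENSMUSG00000024097, chromosome 17, 80200080 to 80207307, minus strand, GRCm38). Its lowest old value, that of old 1, was above the highest young value. Srsf7 rose 1.83-fold (log2 fold change 0.87 ± 0.19, edgeR adjusted p = 0.0165). Of summed SR protein FPKM it made up 11.6, 20.2 and 15.6% in the old hearts, against 11.8, 9.50 and 10.1% in the young hearts. In old 1 this share lay within the young range, and in old 2 and old 3 above it.

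Srsf11, also known as p54, is a nuclear speckle protein that contacts the splicing factor U2AF65. It had 206, 237 and 313 CPM in the old hearts, against 156, 149 and 142 CPM in the young hearts (ENSMUSG00000055436, chromosome 3, 158010473 to 158036639, minus strand, GRCm38). All old hearts exceeded all young hearts, and old 3 was the highest. The gene rose 1.69-fold (log2 fold change 0.76 ± 0.17, edgeR adjusted p = 0.0188).

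Srsf6 and Srsf3 had old values above all young values but missed the threshold. Srsf6, which encodes an SR protein with a pair of RNA-recognition motifs, had 186, 276 and 291 CPM in the old hearts, against 174, 178 and 180.2 CPM in the young hearts. Old 1 lay just above the young hearts, and old 2 and old 3 far above them. The log2 fold change was 0.50 ± 0.17 (edgeR adjusted p = 0.0804). Without old 1, where 37.9% of all genes passed, it was 0.67 ± 0.10 (edgeR adjusted p = 0.000709). With any other 1 library left out Srsf6 did not pass (edgeR adjusted p of 0.179 to 0.236). Srsf3, the smallest SR protein, which acts in splicing and in mRNA export, had 129.5, 138 and 129.5 CPM in the old hearts, against 84.7, 98.8 and 116 CPM in the young hearts. The old hearts were close together here and the young ones spread more widely. Its log2 fold change was 0.41 ± 0.14 (edgeR adjusted p = 0.0855), and 0.42 ± 0.13 without old 1 (edgeR adjusted p = 0.0309). Srsf3 did not pass with any other 1 library left out (edgeR adjusted p of 0.118 to 0.304).

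Srsf5 was the SR protein gene with the highest length-corrected level, at 71.8 ± 28.0 FPKM in old hearts and 72.2 ± 2.92 FPKM in young hearts (SD, n = 3 each). It had 385, 164 and 351 CPM in the old hearts, against 286, 302 and 312 CPM in the young hearts. Old 1 and old 3 lay above the young hearts and old 2 well below them, so the group means were alike while the old hearts differed from each other more than 2-fold. The log2 fold change was 0.00 ± 0.27, and it turned below 0 under most other settings. Of summed SR protein FPKM, Srsf5 made up 32.8, 15.2 and 26.1% in the old hearts, against 30.0, 30.7 and 30.8% in the young hearts.

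Srsf2, also called SC35, had the only negative log2 fold change of the family. It had 99.6, 60.9 and 86.0 CPM in the old hearts, against 98.9, 110.2 and 117 CPM in the young hearts. Old 1 lay among the young hearts and the other old hearts below them. The log2 fold change was −0.40 ± 0.18 (edgeR adjusted p = 0.157). Without old 1, where 37.9% of all genes passed, it was −0.57 ± 0.15 (edgeR adjusted p = 0.0141). With any other 1 library left out Srsf2 did not pass (edgeR adjusted p of 0.230 to 0.344). Exons of Mettl23 and Mfsd11 on the other strand overlap it. No source used here gives whether the libraries kept strand, so reads of overlapping genes on opposite strands cannot be told apart. Such overlaps were also listed for Srsf1, Srsf4, Hnrnpl, Hnrnpk, Hnrnpab, Hnrnpf, Hnrnph3, Hnrnpd, Hnrnpu and Hnrnpr. Hnrnpm, Hnrnpul2 and Hnrnpa3 overlap exons of a gene on the same strand. The part of overlapping reads in the values of these members was not tested.

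The other SR protein genes did not pass. Srsf10 encodes a splicing regulator that is turned into a repressor when it loses its phosphates; it had 88.4, 43.8 and 67.5 CPM in the old hearts, against 57.2, 54.9 and 57.2 CPM in the young hearts, with old 1 and old 3 above and old 2 below all young hearts (log2 fold change 0.24 ± 0.22, edgeR adjusted p = 0.477). Srsf9 (log2 fold change 0.21 ± 0.15) and Srsf4 (0.37 ± 0.18) encode SR proteins with a pair of RNA-recognition motifs. Srsf9 had 23.8, 33.6 and 31.2 CPM in the old hearts, against 24.7, 27.0 and 25.0 CPM in the young hearts. Here old 1 lay below and the other old hearts above the young ones. Without old 1, where 37.9% of all genes passed, Srsf9 had a log2 fold change of 0.34 ± 0.11 (edgeR adjusted p = 0.0315). It did not pass with any other 1 library left out (edgeR adjusted p of 0.484 to 0.704).

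Srsf1, the founding member of the family, had the lowest level of the tested SR protein genes, 0.917 ± 0.337 FPKM in old hearts and 0.670 ± 0.0585 FPKM in young hearts (SD, n = 3 each). It had 7.84, 4.61 and 4.01 CPM in the old hearts, against 3.57, 4.14 and 4.25 CPM in the young hearts (log2 fold change 0.47 ± 0.28, edgeR adjusted p = 0.280). Old 1 was the highest library, and the groups overlapped. A second gene model, ENSMUSG00000098301, carries the same name and held 1 count in old 1 and 0 in the other libraries. It was not found in GENCODE M21. How the authors' counting treated reads shared by both models is not stated in their notes. Exons of Gm11508 on the other strand also overlap Srsf1. The part of shared or overlapping reads in the low level of Srsf1 was not tested. Srsf12 held 0, 2 and 2 counts in the old hearts, against 1, 1 and 0 counts in the young hearts. It and the second Srsf1 model were too low to test.

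Among the hnRNP genes, Hnrnph1 and Hnrnph3 rose and Hnrnpa0 fell. These 3 of 20 genes are 15%, the share among all genes tested being 15.1%. The median log2 fold change of the 20 genes was 0.04, against 0.02 over all genes, with 12 values above and 8 below 0. Without old 1 this median was −0.18. Summed hnRNP RNA was 579, 439.9 and 466 FPKM in the old hearts, against 495, 505 and 514 FPKM in the young hearts. In this sum old 1 was above and old 2 and old 3 below every young heart.

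**Figure D2:**
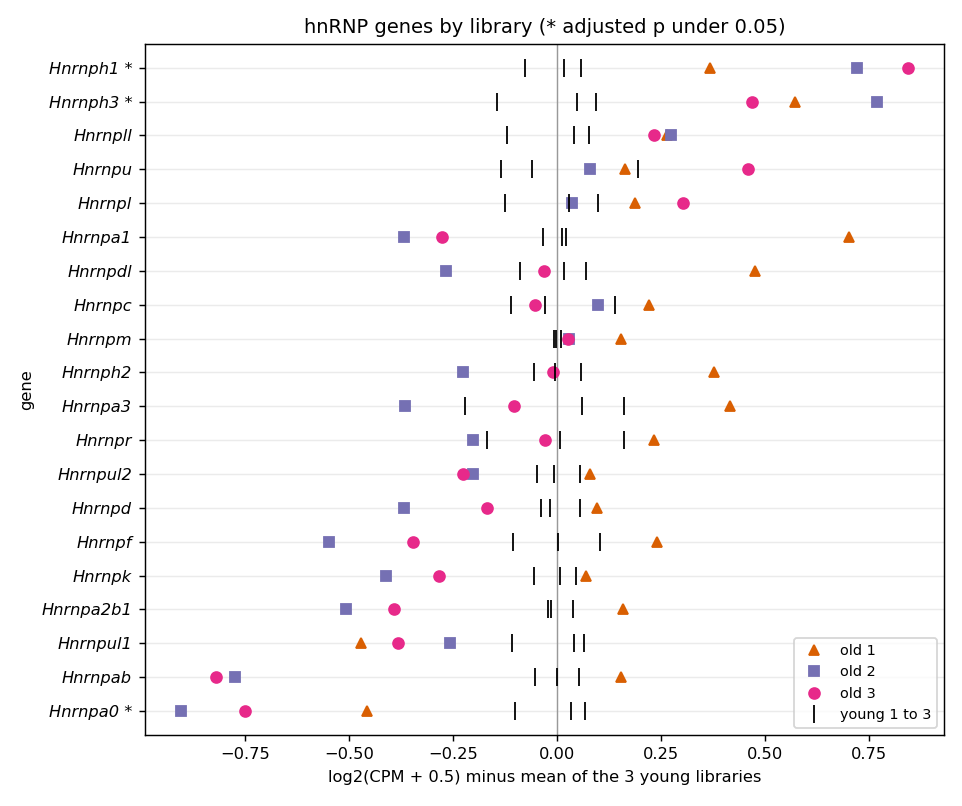
Level of the 20 hnRNP genes in each library, as log2(CPM + 0.5) minus the mean of the 3 young libraries; triangles, squares and circles are old 1, old 2 and old 3, black ticks are the young libraries, and an asterisk marks an adjusted p under 0.05. For 7 genes, Hnrnpa1 and Hnrnpa2b1 among them, the triangle of old 1 lies right of all young ticks and the other old symbols lie left of them.

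Hnrnph1 and Hnrnph3 belong to the F/H group, whose proteins bind runs of guanine. Hnrnph1 had 259, 331 and 360.3 CPM in the old hearts, against 203, 190.2 and 209 CPM in the young hearts (ENSMUSG00000007850, chromosome 11, 50376990 to 50386528, plus strand, GRCm38). The old hearts were all above the young ones, with old 1 nearest to them. Hnrnph1 rose 1.58-fold (log2 fold change 0.66 ± 0.15, edgeR adjusted p = 0.0214). Hnrnph3 had 61.2, 70.1 and 56.9 CPM in the old hearts, against 42.4, 37.0 and 43.8 CPM in the young hearts (ENSMUSG00000020069, chromosome 10, 63014664 to 63024217, minus strand, GRCm38). The groups did not overlap, and old 2 was the highest. It rose 1.53-fold (log2 fold change 0.61 ± 0.13, edgeR adjusted p = 0.0181); exons of Rufy2 overlap it on the other strand.

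Their relatives Hnrnph2 and Hnrnpf were not called. Hnrnph2, a close copy of Hnrnph1 on the X chromosome, had 65.6, 43.1 and 50.1 CPM in the old hearts, against 50.3, 48.6 and 52.5 CPM in the young hearts (log2 fold change 0.07 ± 0.16, edgeR adjusted p = 0.799). Hnrnpf had 79.1, 45.5 and 52.5 CPM in the old hearts, against 62.1, 67.0 and 71.8 CPM in the young hearts (log2 fold change −0.18 ± 0.20, edgeR adjusted p = 0.554). For both genes old 1 was above and old 2 below all young hearts, while old 3 was below them for Hnrnpf only. Of the summed FPKM of the 4 F/H genes, Hnrnph1 made up 42.3, 54.6 and 56.9% in the old hearts, against 43.4, 42.1 and 41.9% in the young hearts. This share was within the young range in old 1 and above it in old 2 and old 3. Some reads of such close copies can be counted for the wrong gene, and the part of this in their values was not tested.

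Hnrnpa0 encodes a member of the A/B group that binds AU-rich elements of inflammatory mRNAs. It had 84.8, 62.1 and 69.1 CPM in the old hearts, against 109, 122 and 119 CPM in the young hearts (ENSMUSG00000007836, chromosome 13, 58125879 to 58128556, minus strand, GRCm38). Every old heart was below every young heart, old 1 least so. The gene fell to 0.617 times the young level (log2 fold change −0.70 ± 0.15, edgeR adjusted p = 0.0155). GENCODE M21 lists 1 transcript for it and none marked for nonsense-mediated decay. Of the summed FPKM of the A/B genes Hnrnpa0, Hnrnpa1, Hnrnpa2b1, Hnrnpa3 and Hnrnpab, it made up 11.4, 14.4 and 14.9% in the old hearts, against 17.4, 19.1 and 18.4% in the young hearts. The share was lower in each old heart than in any young heart, and lowest in old 1.

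**Figure D3:**
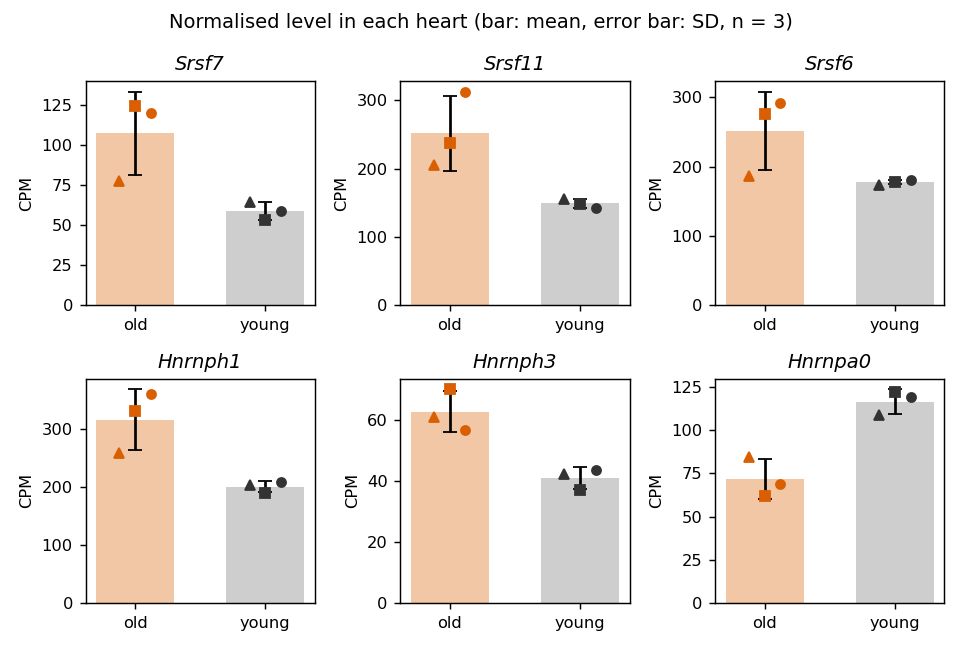
CPM of Srsf7, Srsf11, Srsf6, Hnrnph1, Hnrnph3 and Hnrnpa0 in old and young hearts; bars are means, error bars SD (n = 3), and triangles, squares and circles are replicates 1, 2 and 3. The old hearts lie above the young ones in 5 panels and below them for Hnrnpa0; Srsf6 did not pass the test.

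The promoters of the 5 called genes are shown because these genes moved with age, 4 of them up and 1 down. Each runs from 250 bases before to 50 after a RefSeq start in GRCm38.p6, 5′ to 3′ on the strand of the gene, and the RefSeq start nearest to the GENCODE gene start was taken; for Hnrnph3 these starts are 368 bases apart. Capitals mark 6 motifs, searched on both strands: CCAAT for the CCAAT box, GGGCGG for the GC box, TATAAA for the TATA box, CGGAAG for the core of ETS factor sites, TGACGT for a half-site of cyclic AMP response elements, and the NRF1 site. None of the motifs contains another, though matches can touch, as the GC box and an ETS core do in the Srsf11 window.
Srsf7, chr17:80207256-80207555, minus strand: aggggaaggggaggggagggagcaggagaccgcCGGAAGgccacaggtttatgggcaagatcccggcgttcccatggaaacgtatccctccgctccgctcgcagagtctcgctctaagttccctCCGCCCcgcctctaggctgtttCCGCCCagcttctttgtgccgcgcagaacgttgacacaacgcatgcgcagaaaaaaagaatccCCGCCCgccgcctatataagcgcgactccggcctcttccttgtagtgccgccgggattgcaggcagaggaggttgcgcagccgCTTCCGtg
Srsf11, chr3:158036557-158036856, minus strand: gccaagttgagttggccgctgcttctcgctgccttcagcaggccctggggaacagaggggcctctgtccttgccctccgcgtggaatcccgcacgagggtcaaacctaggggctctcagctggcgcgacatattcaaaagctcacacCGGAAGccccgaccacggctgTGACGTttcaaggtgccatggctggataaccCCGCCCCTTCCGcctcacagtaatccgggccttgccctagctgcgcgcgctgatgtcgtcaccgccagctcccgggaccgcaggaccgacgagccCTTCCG
Hnrnph1, chr11:50376740-50377039, plus strand: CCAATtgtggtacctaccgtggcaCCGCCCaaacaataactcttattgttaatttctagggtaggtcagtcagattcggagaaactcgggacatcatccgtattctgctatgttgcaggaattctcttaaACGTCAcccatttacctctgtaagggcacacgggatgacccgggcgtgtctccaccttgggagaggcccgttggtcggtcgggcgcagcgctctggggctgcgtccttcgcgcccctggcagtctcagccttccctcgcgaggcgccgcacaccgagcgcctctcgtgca
Hnrnph3, chr10:63023800-63024099, minus strand: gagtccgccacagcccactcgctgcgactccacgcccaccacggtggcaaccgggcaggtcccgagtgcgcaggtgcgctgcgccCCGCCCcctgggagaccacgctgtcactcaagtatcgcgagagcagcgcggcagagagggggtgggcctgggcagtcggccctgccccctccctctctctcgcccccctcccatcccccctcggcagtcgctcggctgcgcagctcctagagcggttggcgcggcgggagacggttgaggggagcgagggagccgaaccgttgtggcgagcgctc
Hnrnpa0, chr13:58128507-58128806, minus strand: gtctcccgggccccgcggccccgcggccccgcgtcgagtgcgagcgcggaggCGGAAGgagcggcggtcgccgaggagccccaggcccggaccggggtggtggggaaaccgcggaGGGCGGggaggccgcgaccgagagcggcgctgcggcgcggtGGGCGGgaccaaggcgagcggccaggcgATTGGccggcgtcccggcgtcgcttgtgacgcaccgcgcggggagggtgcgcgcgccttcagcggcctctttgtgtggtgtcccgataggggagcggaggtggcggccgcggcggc
Each of the 5 windows holds GGGCGG, and none holds TATAAA or the exact letters searched for the NRF1 site. GGGCGG was found in 10 of 11 SR protein promoters (90.9%) and 13 of 18 hnRNP promoters (72.2%), against 35.7% of 32851 promoter windows of the same length. The 32851 windows were not cut to 1 start per gene, as those of the members were, nor to genes tested here. The shares below are set against the same windows. CCAAT was found in 4 SR protein (36.4%) and 12 hnRNP promoters (66.7%), against 37.4% of all windows. TGACGT was in 3 (27.3%) and 5 (27.8%), against 7.51%, and CGGAAG in 5 (45.5%) and 5 (27.8%), against 16.9%. TATAAA was in 2 (18.2%) and 2 (11.1%), against 13.6%, and the NRF1 site in none of either family, against 0.971%. In all 29 members were matched by symbol; Hnrnpll and Hnrnpul2 were not. CCAAT is in the windows of Hnrnph1 and Hnrnpa0, CGGAAG in those of Srsf7, Srsf11 and Hnrnpa0, and TGACGT in those of Srsf11 and Hnrnph1. A match is a run of letters and says nothing of binding. Only exact letters were searched for each motif, so variants that differ by a letter were missed. A window without a match, such as that of Srsf7 for the TATA box and the NRF1 site, can still hold such a variant.

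Other members of the A/B group, which includes abundant repressors of exon inclusion, differed between old hearts. Hnrnpa2b1 had the highest length-corrected level of all hnRNPs, 85.8 ± 21.5 FPKM in old hearts and 100.2 ± 1.75 FPKM in young hearts (SD, n = 3 each), followed by Hnrnpa1 with 53.5 ± 23.5 FPKM in old hearts and 50.04 ± 0.901 FPKM in young hearts. In CPM, Hnrnpa2b1 had 477, 300.4 and 325 CPM in the old hearts, against 422, 420.2 and 438 CPM in the young hearts. Old 1 was above all young hearts, and the other old hearts were below all of them. Hnrnpa1 had 163, 77.4 and 82.5 CPM in the old hearts, against 101, 97.7 and 102 CPM in the young hearts, with the same order of libraries against the young hearts. The log2 fold changes were −0.22 ± 0.18 for Hnrnpa2b1 (edgeR adjusted p = 0.432) and 0.11 ± 0.26 for Hnrnpa1 (edgeR adjusted p = 0.806). Hnrnpab, whose protein binds both DNA and RNA, had 90.6, 47.4 and 45.9 CPM in the old hearts, against 81.4, 84.5 and 78.4 CPM in the young hearts (log2 fold change −0.41 ± 0.24, edgeR adjusted p = 0.270). Hnrnpa3 had a log2 fold change of 0.01 ± 0.20. The 5 A/B genes together had 876, 523 and 565 CPM in the old hearts, against 752, 776 and 785 CPM in the young hearts. Both Hnrnpa1 and Hnrnpa3 have many processed pseudogenes, which may take or add reads.

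The pattern of old 1 above and old 2 and old 3 below all young hearts was found for 7 of 20 hnRNP genes (35%), against 4.98% of all genes tested. The genes are Hnrnpa1, Hnrnpa2b1, Hnrnpab, Hnrnpd, Hnrnpf, Hnrnpk and Hnrnpul2. No SR protein gene showed it, and the reverse was seen for Srsf9 alone among the members (10% of SR protein genes), against 5.37% of all genes. Old 1 was above all young hearts for 17 hnRNP genes (85%) and 8 SR protein genes (80%), against 37.2% of all genes. In the related lists of splicing genes read further below this share was 40% to 75%. Young libraries also spread less for both families, with a median SD of log2 CPM of 0.09 for SR proteins and 0.08 for hnRNPs, against 0.13 over all genes. The part of this narrower young range in the shares given here was not tested. Old 2 and old 3 were both below all young hearts for 9 hnRNP genes (45%) and 1 SR protein gene (10%), against 30.4% of all genes, and both above them for 4 hnRNP genes (20%) and 5 SR protein genes (50%), against 30.8%. The median difference from the young mean, in log2 CPM, was 0.21 in old 1, −0.24 in old 2 and −0.08 in old 3 for hnRNPs. For SR proteins it was 0.39, 0.36 and 0.30. Over all genes tested these medians were 0.01, 0.00 and 0.00. The median of SR proteins was above 0 in each old heart, and that of hnRNPs was above 0 in old 1 and below it in old 2 and old 3. The share of mitochondrially encoded protein transcripts was 19.9, 16.2 and 25.1% in the old hearts, against 24.1, 25.6 and 23.8% in the young hearts. It was lowest in old 2, and its part in these differences was not tested.

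Without old 1, 37.9% of all genes passed, 20.1% higher and 17.7% lower in old hearts, and the call set of both families grew. Then 5 SR protein genes passed as higher (Srsf3, Srsf6, Srsf7, Srsf9 and Srsf11) and 1 as lower (Srsf2). Of the hnRNP genes 2 were higher, Hnrnph1 and Hnrnph3, and 7 lower, which is 35% of the family. The lower ones were Hnrnpa0, Hnrnpa1, Hnrnpa2b1, Hnrnpab, Hnrnpf, Hnrnpk and Hnrnpul1. Hnrnpab then had a log2 fold change of −0.81 ± 0.10 (edgeR adjusted p = 0.000315) and Hnrnpa2b1 of −0.45 ± 0.10 (edgeR adjusted p = 0.00729). Hnrnpa1, at 0.11 ± 0.26 with all libraries, was at −0.33 ± 0.10 without old 1 (edgeR adjusted p = 0.0249). These calls rest on 2 old hearts.

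The calls of the 5 members also rested on other libraries. Without old 2, which left 10.4% of all genes called, the 5 still passed. Without old 3 (6.23% of all genes called) Srsf11 and Hnrnph3 passed, while Srsf7, Hnrnph1 and Hnrnpa0 had edgeR adjusted p values of 0.0678, 0.0712 and 0.0595. No member passed without young 1 (3.63% of all genes called), young 2 (3.65%) or young 3 (4.18%). In those 3 fits the edgeR adjusted p was 0.0625 to 0.0885 for Srsf7, 0.078 to 0.10 for Srsf11, 0.0942 to 0.112 for Hnrnph1, 0.0779 to 0.108 for Hnrnph3 and 0.0584 to 0.0808 for Hnrnpa0. Each of these genes kept its direction in the 6 fits with 1 library left out.

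The remaining hnRNP genes were not called with all libraries. Hnrnpl, next to Hnrnpa1 in length-corrected level with 48.0 ± 4.30 FPKM in old hearts and 42.6 ± 3.16 FPKM in young hearts (SD, n = 3 each), binds CA repeats and enhances or represses exons by position. It had 301, 270.4 and 326 CPM in the old hearts, against 242, 269 and 282 CPM in the young hearts (log2 fold change 0.18 ± 0.13, edgeR adjusted p = 0.388), with old and young hearts overlapping. Its paralogue Hnrnpll, known from the splicing of Ptprc in mouse lymphocytes, had 33.3, 33.5 and 32.5 CPM in the old hearts, against 29.1, 28.4 and 25.4 CPM in the young hearts. The groups did not overlap, but the change missed the threshold (log2 fold change 0.26 ± 0.12, edgeR adjusted p = 0.175). Hnrnpul1, a relative of the scaffold protein hnRNP U, had 46.8, 54.4 and 49.9 CPM in the old hearts, against 67.0, 68.2 and 60.4 CPM in the young hearts (log2 fold change −0.37 ± 0.12, edgeR adjusted p = 0.0707). All old values were lower than all young ones. Hnrnpu itself had a log2 fold change of 0.24 ± 0.15 and Hnrnpul2 of −0.11 ± 0.13, and neither passed.

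Hnrnpk, which binds cytosine-rich stretches, had 179, 128 and 139.8 CPM in the old hearts, against 171, 164 and 176 CPM in the young hearts (log2 fold change −0.19 ± 0.15), with old 1 just above and the other old hearts below the young ones. Hnrnpm had a small difference in a narrow range, 107, 98.3 and 98.1 CPM in the old hearts, against 95.8, 97.1 and 96.2 CPM in the young hearts (log2 fold change 0.07 ± 0.12, edgeR adjusted p = 0.711). Although its groups did not overlap, the change did not pass. Hnrnpc, whose protein binds uridine tracts and measures transcript length, had a log2 fold change of 0.09 ± 0.13. Hnrnpd, also called AUF1, had −0.13 ± 0.14 and its relative Hnrnpdl 0.09 ± 0.19. Hnrnpr had 0.01 ± 0.16. Hnrnpm and Hnrnpll with Hnrnph1 and Hnrnph3 were the 4 hnRNP genes whose old hearts all exceeded the young ones (20%, against 18.8% of all genes), and Hnrnpa0 and Hnrnpul1 the 2 whose old hearts were all lower (10%, against 18.4%).

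Transcripts marked for nonsense-mediated decay in GENCODE M21 were listed for 9 of 10 tested SR protein genes (90%) and 10 of 20 hnRNP genes (50%), against 28.1% of 12969 protein-coding genes tested. Those with a retained intron were listed for 8 (80%) and 14 (70%), against 58.4%. The median number of listed transcripts per gene was 7.5 and 8, against 5, and the shares do not account for this. Srsf11 has 3 transcripts of the first kind and 11 of the second among 19, and Srsf7 has 1 and 3 among 8. Hnrnph1 has none of either among 18, but only 3 of its 18 are marked as protein-coding. A gene count sums productive and unproductive transcripts, so the values above do not tell how much of a change lies in RNA that makes protein.

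The genes that act on SR proteins or with them were read from lists. Among 8 SR protein kinase genes 4 rose and 0 fell (50%, against 15.1% of all genes called in either direction and 8.72% called higher). Their median log2 fold change was 0.61. Clk4, a kinase of the nucleus whose own transcripts often retain introns, had 121, 188 and 201 CPM in the old hearts, against 96.9, 83.6 and 87.4 CPM in the young hearts (log2 fold change 0.93 ± 0.19, edgeR adjusted p = 0.0145). Every old heart was above every young one. Clk1 had 251, 462 and 498 CPM in the old hearts, against 209.7, 196 and 242 CPM in the young hearts (log2 fold change 0.90 ± 0.24, edgeR adjusted p = 0.0332). Old 1 was nearest to the young hearts. Clk3 (log2 fold change 0.74 ± 0.16, edgeR adjusted p = 0.0174) and Srpk3, the muscle member of the Srpk kinases (0.58 ± 0.14, 0.0256), rose as well. The kinase genes that did not pass were Clk2 (0.64 ± 0.21), Srpk1 (0.53 ± 0.16), Srpk2 (0.44 ± 0.22) and Prpf4b (−0.11 ± 0.14). None of the 8 passed when old 3 or any 1 of the young hearts was left out, and 7 passed without old 1, where 37.9% of all genes did. Clk1 did not pass on log2(FPKM + 1) (limma adjusted p = 0.0701).

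SR-related proteins, which carry arginine-serine stretches without being classical SR proteins, had 6 of 20 genes higher (30%, against 8.72% of all genes higher) and none lower. The median of the list was 0.34. Among the named genes Tra2a, a splicing activator that binds exonic enhancers, had the largest log2 fold change. Tra2a had 67.2, 221 and 163 CPM in the old hearts, against 53.9, 50.6 and 57.0 CPM in the young hearts (log2 fold change 1.48 ± 0.34, edgeR adjusted p = 0.0223). Old 1 was close to the young hearts and old 2 highest. On log2(FPKM + 1) Tra2a did not pass (limma adjusted p = 0.0644). Luc7l2 (0.76 ± 0.14) and Luc7l (0.87 ± 0.17), which encode partners of the U1 particle, and Srek1 (0.77 ± 0.16), which encodes a splicing regulator, rose too. The other called genes were Srrm1 and Son. The count was 2 without old 3 (6.23% of all genes called in either direction), 3 without old 2 (10.4%) and 0 with any 1 young heart left out (3.63% to 4.18%). Without old 1 (37.9%) 12 genes were higher and 3 lower.

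Of 34 core spliceosome genes 4 rose and 1 fell (14.7%, close to the 15.1% of all genes), with a median of 0.07. Sf3b1, a subunit of the U2 particle that holds the branch point, had 357, 487 and 642 CPM in the old hearts, against 260.4, 252 and 239 CPM in the young hearts (log2 fold change 0.98 ± 0.20, edgeR adjusted p = 0.0133). The old hearts were all higher than the young ones. Eftud2 (0.93 ± 0.21), a GTPase of the U5 particle, U2af1 (0.54 ± 0.12), which reads the 3′ splice site, and Sart1 (0.47 ± 0.12) rose, and Snrpb (−0.48 ± 0.13), an Sm protein of the core ring, fell. Snrpb was named after its value was seen, as the only lower one. Without old 3, 1 gene was higher and 0 lower; without old 2, 2 were higher and 0 lower; and without old 1, where 37.9% of all genes were called, 9 were higher and 6 lower. None passed with any 1 young heart left out.

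Proteins counted among the hnRNPs under other symbols, such as PTB and the poly(C)-binding proteins, had 1 of 13 genes higher (7.69%, close to the 8.72% of all genes higher) and none lower. Their median log2 fold change was −0.12. The gene was Ptbp2, a repressor known best from neurons, with 51.7, 49.4 and 66.2 CPM in the old hearts, against 35.5, 28.8 and 28.4 CPM in the young hearts (log2 fold change 0.85 ± 0.16, edgeR adjusted p = 0.00955). All old hearts exceeded the young ones. In 5 of the 13 genes (38.5%, against 4.98% of all genes tested) old 1 was above and old 2 and old 3 below all young hearts. This is the order seen for 7 hnRNP genes. It was also found for 13.3% of the genes of nonsense-mediated decay and 8.82% of the core spliceosome genes. No SR protein kinase, SR-related gene or transport partner had it. Without old 1 (37.9% of all genes called), 2 of the 13 genes were higher and 5 lower, and Ptbp2 did not pass without young 2 or young 3. No transport partner of 6 and none of 15 genes of nonsense-mediated decay and the exon junction complex passed edgeR's adjusted threshold. At an unadjusted edgeR p under 0.05 were 2 and 4 of them, against 4680 of 14413 over all genes tested. DESeq2 and limma-voom also called none at an adjusted p under 0.05. When old 1 was left out (37.9% of all genes called), edgeR called 1 transport partner higher and 1 lower, and 4 decay genes higher and 2 lower. When old 2 was left out (10.4% of all genes called), it called 1 decay gene lower.

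**Figure D4:**
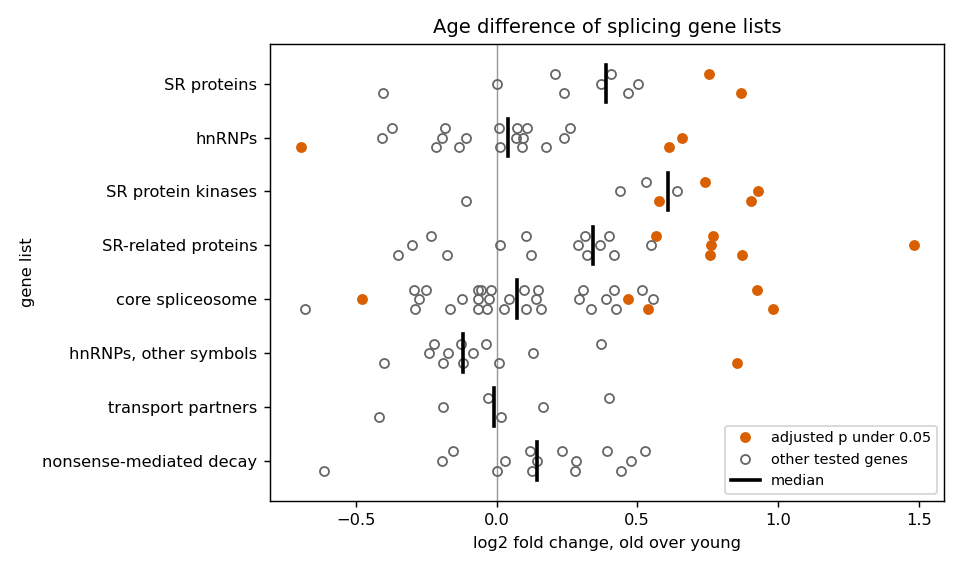
Log2 fold change of old over young for each tested gene of the 2 families and of 6 related lists; filled circles passed an adjusted p of 0.05, open circles did not, and black bars are medians. The medians of SR proteins (0.39), SR protein kinases (0.61) and SR-related proteins (0.34) lie right of 0, and that of hnRNPs (0.04) lies near it.

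Markers of other cell types and signs of RNA composition were read in the same libraries, and the counts below stand against 8.72% of all genes higher and 6.36% lower. Of 6 tested leukocyte markers 3 rose and 0 fell, and the list summed to 212 to 229 CPM in old and 116 to 129 CPM in young hearts; Cd3e and Ms4a1 were too low to test, and no row named Adgre1 was used here. Of 6 endothelial markers 3 fell and 0 rose, at 810.1 to 913 CPM in old and 1217 to 1367 CPM in young hearts. Fibroblast markers had 2 of 6 lower (505 to 1164 CPM in old and 801 to 1150.1 CPM in young hearts), mural markers 1 of 6 lower (642 to 1053 CPM in old and 926 to 1174 CPM in young hearts), and red cell genes 1 of 5 lower (455 to 1215 CPM in old and 928 to 981 CPM in young hearts). In these 3 sums old and young hearts overlapped, while those of leukocyte and endothelial markers did not. Cardiomyocyte markers had 1 higher and 2 lower of 8. None of 4 adipocyte markers could be tested, and they summed to 0.371 to 2.02 CPM in old and 0 to 2.06 CPM in young hearts. Of all counts, the nuclear RNA Neat1 took 0.407, 0.678 and 1.01% in the old hearts, against 0.324, 0.360 and 0.346% in the young hearts. Malat1, another nuclear RNA, took 0.0357 to 0.0911% in old and 0.0884 to 0.0955% in young hearts. The part of cell composition or of nuclear RNA in the levels of SR proteins and hnRNPs was not tested.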

How the data were processed

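RNA of 6 heart samples, 3 old and 3 young, was sequenced. Per the submitters' processing notes the authors used HISAT2, featureCounts of Subread and GRCm38.p6; their versions and settings and the gene annotation release are not stated in those notes. The labels' extraction text refers to a different sample type, abbreviated NRVMs. The deposited counts are whole reads per gene. The FPKM values that the authors deposited scale counts by gene length and depth. Gene models without a name (571, 0.295% to 0.368% of counts) were left out. Depth was 13673856 to 15583364 counts, which limits precision for genes such as Srsf1.

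Genes were tested with edgeR 4.0.16 in R 4.3.3 (filterByExpr, TMM, quasi-likelihood F test, Benjamini-Hochberg adjustment over 14413 genes at 0.05), and limma 3.58.1 and DESeq2 1.42.0 served for alternatives. The SE is the absolute log2 fold change over the square root of F. The methods were run on simulated counts with equal spread at both ages, which does not check them under the wider spread of old hearts. Full values are given for called members, for the 3 members per family with the highest mean FPKM or the largest change, and for members too low to test; the 4 called genes with the smallest p are named per list. Members and lists were chosen with earlier results of these data known. Tried as alternatives were 2 other sets of scaling factors (RLE, upper quartile), 2 other filters, DESeq2, limma-voom, limma fitted to log2 FPKM, a replicate block and leaving out each library in turn; their use on the related lists was chosen after seeing the data. Annotation is GENCODE M21 (GRCm38), where 31 of the 32 models were found by identifier; promoters are from RefSeq (GRCm38.p6).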

Additional observations from a re-analysis of the deposited data

How the results depend on the processing

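All 5 called members kept their call and direction under RLE and upper-quartile factors, both other filters, DESeq2, limma-voom and both FPKM fits. Same-numbered old and young hearts did not deviate together (r of −0.09, −0.07 and 0.04 across genes, which are not independent). Not every library correlated best with its own number, and the highest r, 0.16, was between old 2 and young 1. These values show no pairing by replicate number, but 3 libraries per age cannot exclude one. With the replicate block 2 SR protein and 2 hnRNP genes were higher and 1 hnRNP gene was lower. The block called 1774 genes in all, against 2174. In the block the core spliceosome list had 0 genes lower; it had 2 with no filter on low counts, with DESeq2 and on log2(FPKM + 1). Upper-quartile factors added Hnrnpul1, for 2 hnRNP genes lower, and DESeq2 added Srsf6. The SR protein median was 0.25 on log2(FPKM + 1), and 0.30 to 0.44 with 1 library left out; the hnRNP median was −0.18 to 0.10 with 1 library left out. Srsf5 changed sign, to −0.0047 with RLE factors, −0.037 with upper-quartile factors, −0.014 with no filter, −0.0048 with DESeq2, −0.094 with limma-voom, −0.096 and −0.098 on log2(FPKM + 1) and log2(FPKM + 0.1), −0.088 with the replicate block, and ranged over −0.22 to 0.29 with 1 library left out.

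With 1 library left out the count of all genes was 350 to 2961 higher and 184 to 2609 lower. For SR proteins it was 0 to 5 higher and 0 to 1 lower, and for hnRNPs 0 to 2 higher and 0 to 7 lower. Hnrnpa1 turned to −0.33 without old 1. For SR protein kinases the count ranged over 0 to 7 higher, for SR-related genes over 0 to 12 higher and 0 to 3 lower, for the core spliceosome over 0 to 9 and 0 to 6, for hnRNPs under other symbols over 0 to 2 and 0 to 5, for transport partners over 0 to 1 and 0 to 1, and for decay genes over 0 to 4 and 0 to 2. With the replicate block Sart1 and Snrpb did not pass (edgeR adjusted p = 0.0686 and 0.0667). Lost calls of the 19 named genes reached an adjusted p of at most 0.158, and none changed direction. These fits have fewer samples.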
